A study of Bos taurus with 4 samples.

Results

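The interleukin-1 ligands and receptors examined here are 6 genes, IL1A, IL1B, IL1RN, IL1R1, IL1R2 and IL1RAP, chosen by the gene symbol that the platform annotation gives to each probe. They had 8 of the 43794 embryo probes, 2 each for IL1RN and IL1R1 and 1 each for the others, and they are 6 of 15229 annotated genes. The family was taken up because IL1A had shown one of the larger differences between sire ages in these data. Its values in that contrast are therefore a description without a test.

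The samples were bovine blastocysts produced in vitro from slaughterhouse oocytes. In one group the eggs were fertilised with sperm of bulls aged 10 months, and in the other with sperm of bulls aged 16 months. Semen came from 4 bulls at either age, but the labels do not say which bull is on which array. Each of 4 two-colour arrays, called replicates 1 to 4, held 1 sample of each age, with the 10-month sample in Cy5 on replicates 1 and 2 and in Cy3 on replicates 3 and 4. No breed, pool size or embryo sex is given in the labels used here, and the RNA was amplified before labelling.

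Interleukin 1 alpha and interleukin 1 beta are inflammatory cytokines that bind the same signalling receptor, IL1R1. The bound receptor recruits the accessory protein IL1RAP, and the pair signals through the adaptor MYD88 to the transcription factor NF-kB. IL1RN is a receptor antagonist that occupies IL1R1 without signalling, and IL1R2 is a decoy receptor that binds ligand but lacks a signalling domain. In the pig, the elongating conceptus is known to secrete a form of interleukin 1 beta, and in several mammals the system has been studied at implantation.

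Most markers of the blastocyst lineages were above background. Among trophectoderm markers 13 of 13 were tested and 11 of them were above background in both ages on all 4 arrays. Among inner cell mass markers 6 of 6 were, and among primitive endoderm markers 7 of 8 listed. By probe, 46.7% of all embryo probes were above background throughout, and 83.3% were on at least 2 arrays in either channel. Markers are counted by a gene's brightest probe, so these shares are only a rough guide. Of 14 leukocyte markers, 9 were tested and 3 were above background throughout, while CD79A, ITGAM, LYZ, TYROBP and S100A9 were too dim to test. Of 12 cumulus and granulosa cell markers, 10 were tested and 4 were above background throughout. Of 5 endothelium markers, 5 were tested and 2 were above background throughout. No spot of the 8 interleukin-1 probes had been set aside by the scan software. Between 33452 and 35972 embryo probes were above background in either channel of an array.

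A probe was counted as above background where the median of its spot exceeded a limit set by the negative control on the same array and channel. The limit was the control's median plus 2 median absolute deviations. Of the 8 interleukin-1 probes, 6 were above it in both ages on all 4 arrays, as were 46.7% of all embryo probes. With at least 2 arrays above the limit in either channel as the filter, 7 of the 8 were tested, as 83.3% of all embryo probes would be before spots were set aside. The probe for the decoy receptor IL1R2 (EMBV3_43400) had signals of 9527, 6241, 9940 and 11572 in 10-month embryos on replicates 1 to 4, against 11582, 7185, 5623 and 8874 in 16-month embryos. These were at least 41.1 times the limit in 10-month embryos and at least 29.0 times the limit in 16-month embryos. Signals of different probes are not compared here, since each probe binds with its own strength. Neither are raw signals of the 2 ages, which carry different dyes.

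**Figure D1:**
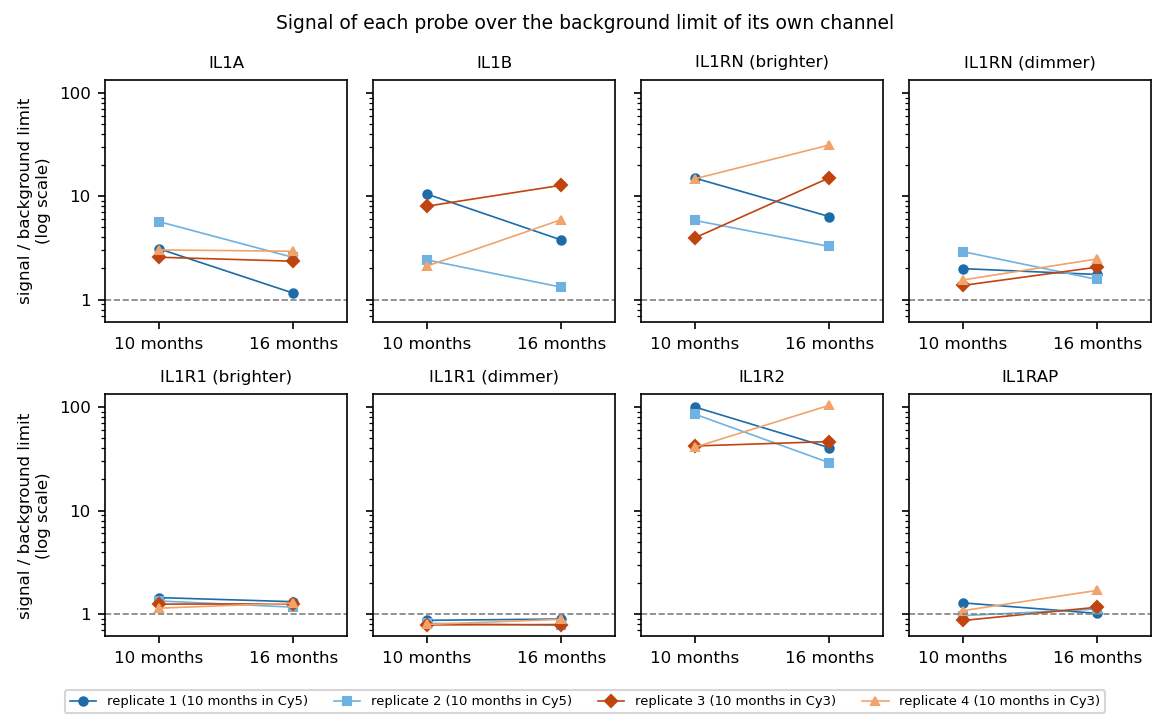
Signal of each interleukin-1 probe divided by the background limit of its own channel (vertical axis, log scale) in 10-month and 16-month embryos, with 1 line per array and the dashed line at the limit. IL1R2 lay far above the limit everywhere, the dimmer IL1R1 probe lay below it in all 8 samples, and IL1RAP lay close to it; slopes between ages also hold the difference between dyes.

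The probes for the signalling receptor and its partner gave weak signals. The brighter IL1R1 probe (EMBV3_24275) was between 1.13 and 1.43 times the limit in 10-month embryos and between 1.16 and 1.31 times in 16-month embryos. The dimmer IL1R1 probe (EMBV3_05704) was above the limit in 0 samples of either age, so no fold is given for it. IL1RAP (EMBV3_42858) was above the limit on 2 of 4 arrays in 10-month embryos, at 1.28, 0.96, 0.86 and 1.07 times the limit on replicates 1 to 4. In 16-month embryos it was above the limit on all 4, at 1.01, 1.11, 1.16 and 1.69 times. The IL1RAP transcript was thus measured at the edge of detection in both ages.

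Transcripts of both ligands and the antagonist were detected in every sample. IL1A (EMBV3_28443) was at 3.10, 5.68, 2.57 and 3.02 times the limit in 10-month embryos and at 1.15, 2.55, 2.35 and 2.94 times in 16-month embryos. IL1B (EMBV3_04681) ranged from 2.11 to 10.5 times the limit in 10-month embryos and from 1.32 to 12.8 times in 16-month embryos. The brighter IL1RN probe (EMBV3_25244) ranged from 3.97 to 15.0 times at 10 months and from 3.27 to 31.4 times at 16 months. The dimmer IL1RN probe (EMBV3_21588) stayed between 1.37 and 2.91 times at 10 months and between 1.56 and 2.48 times at 16 months.

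IL1A was higher in embryos sired at 10 months on all 4 arrays. Its normalised log2 level was 8.52, 9.14, 9.0 and 9.09 in 10-month embryos of replicates 1 to 4, against 7.25, 8.96, 8.08 and 8.18 in 16-month embryos. The 2 groups overlapped, because the 16-month sample of replicate 2 exceeded the 10-month sample of replicate 1. The log2 ratio of 10 over 16 months was 1.27, 0.18, 0.92 and 0.90, and these values still hold the dye effect. With age and dye fitted together over the 4 arrays, the ratio was 0.82 ± 0.18 (SE), which is 1.77-fold with a 95% interval from 1.32 to 2.36. This is the value that brought the family up, so nothing is read from its size or from its count of 4 arrays. Of all tested probes, 0.157% reached a fitted 1.5-fold difference toward 10 months, and 4.61% had a ratio above 0 on all 4 arrays. No member had a ratio below 0 on all 4, as 4.76% of tested probes did.

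IL1A has a single probe on this platform, so no second probe bears on it. Without replicate 1 its fitted ratio was 0.55, and without replicate 2 it was 1.09. With set-aside spots of the arrays kept it was 0.51. In the authors' deposited table the IL1A values, turned to 10 over 16 months, were 1.14, 0.15, 0.92 and 0.88 on replicates 1 to 4.

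**Figure D2:**
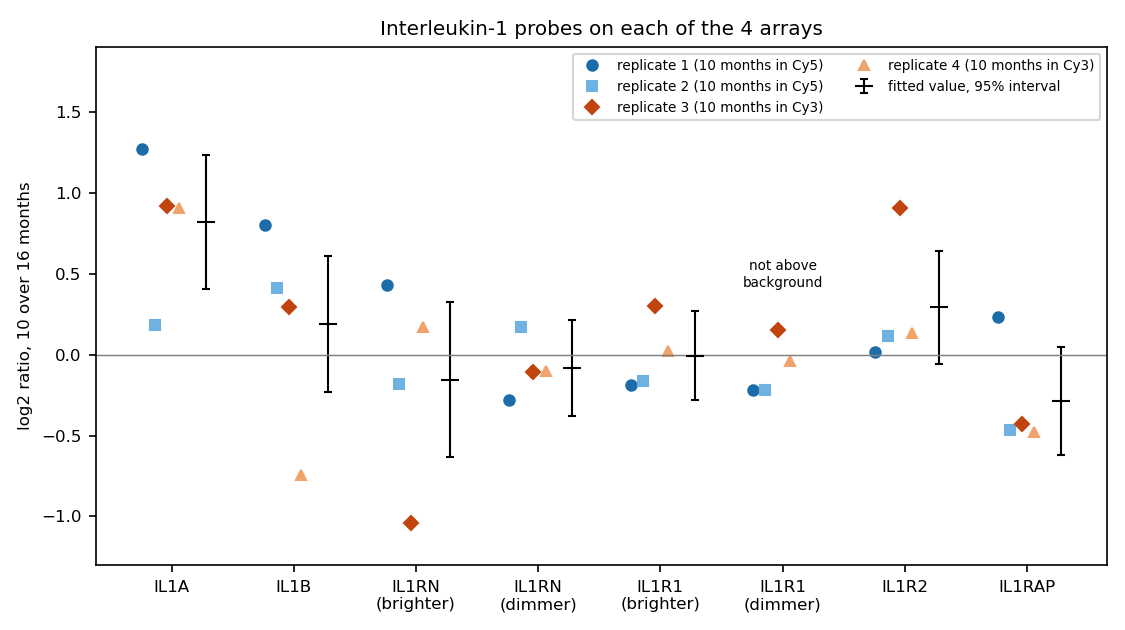
Log2 ratio of 10 over 16 months for each interleukin-1 probe (vertical axis) on each array (symbols), with the fitted value and its 95% interval in black. IL1A lay above 0 on 4 arrays with a fitted value of 0.82. It was chosen for its value in this contrast, so its place and interval are a description without a test. The intervals of the other 6 tested probes included 0.

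The other members were split in direction. Of the 6 other probes tested, 2 had a fitted ratio above 0 (IL1B and IL1R2) and 4 below it (both IL1RN probes, IL1R1 and IL1RAP), where 49.4% of all tested probes lay above 0. Their median was -0.04, against -0.0018 over all tested probes. None passed the limma test after Benjamini-Hochberg adjustment over all 36325 tested probes, with adjusted p from 0.957 to 0.998, and 0 of 6 had an unadjusted p under 0.05. Over all tested probes 0% passed the adjusted test and 3.96% had an unadjusted p under 0.05. Without replicate 4, 1858 of all tested probes passed the adjusted test, and without replicate 3, 6 did, but none of the 6 other members' probes was among them. Changes of 1.5-fold were within the interval of some of these probes, so the test does not show that they were alike between ages.

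IL1B, the second agonist, had log2 ratios of 0.80, 0.41, 0.29 and -0.74 on replicates 1 to 4. It was higher at 10 months on 3 arrays and lower on replicate 4, and the 2 ages overlapped over almost their whole range. The fitted ratio was 0.19 ± 0.18 (SE, 4 arrays), with a 95% interval from -0.23 to 0.61, and it was -0.07 without replicate 3. With the dye effect of 0.42 (log2 Cy5 over Cy3) removed, the values were 0.38, -0.0053, 0.71 and -0.33. IL1B thus had the same sign as IL1A on 3 arrays as measured and on 2 with the dye effect removed.

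The level of IL1B differed widely between replicates, in both ages together. Its normalised log2 level was 10.23, 7.95, 10.81 and 8.41 in 10-month embryos, against 9.43, 7.54, 10.52 and 9.15 in 16-month embryos. The highest and lowest replicate differed 7.24-fold at 10 months and 7.85-fold at 16 months. Replicates 1 and 3 were high in both ages and replicate 2 was the lowest in both. That span exceeded the span of 99.3% of tested probes at 10 months and 99.8% at 16 months, whose medians were 0.51 and 0.50 log2 units. Both samples of a replicate share an array and a spot, so embryo batch and array cannot be told apart as the source.

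**Figure D3:**
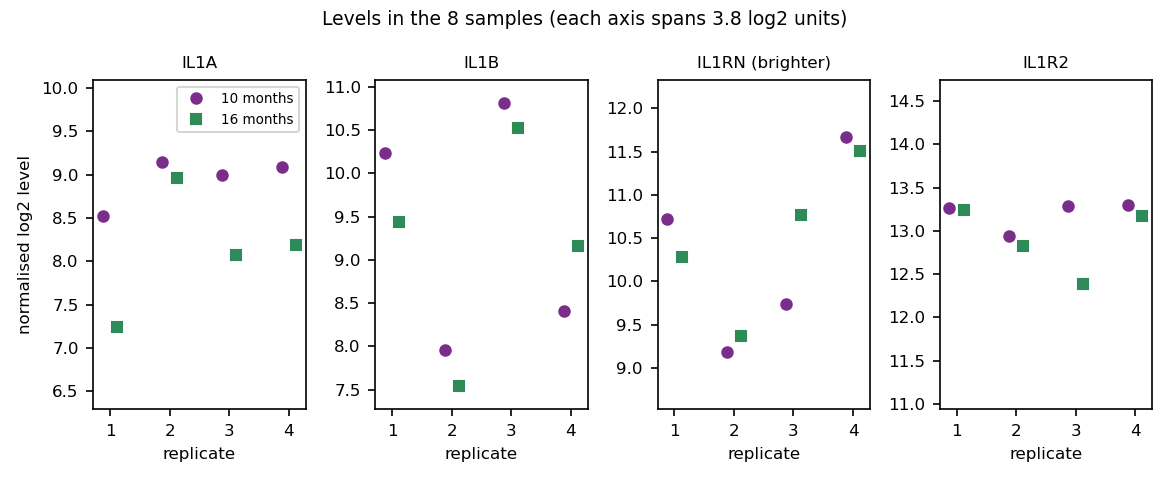
Normalised log2 level (vertical axis) of IL1A, IL1B, the brighter IL1RN probe and IL1R2 in 10-month (circles) and 16-month embryos (squares) of replicates 1 to 4. IL1B and IL1RN moved between replicates in both ages, by 2.86 and 2.49 log2 units at 10 months, while IL1A spanned 0.62 at 10 months and 1.71 at 16 months.

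The spots of IL1B were also uneven. The mean over the pixels of a spot exceeded the median in 6 of its 8 spot readings, by up to 1.91 times, in the 10-month channel of replicate 2. That held for 0 of 8 readings at each of the other interleukin-1 probes, and 0.732% of tested probes had 6 or more such readings. With spot means in place of spot medians the fitted ratio of IL1B was 0.23. The part of the uneven spots in the IL1B values was not tested.

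IL1RN, the receptor antagonist, had 2 probes whose ratios differed in sign on most arrays, with the dye effect still in them. The brighter probe had log2 ratios of 0.43, -0.18, -1.04 and 0.17 on replicates 1 to 4, and the dimmer one -0.28, 0.17, -0.11 and -0.10. They had the same sign on 1 array, replicate 3. The fitted ratios were both below 0, at -0.16 ± 0.21 and -0.08 ± 0.13 (SE, 4 arrays). Their 95% intervals, from -0.63 to 0.32 and from -0.38 to 0.21, overlapped. Without replicate 3 the brighter probe was at 0.15, and without replicate 1 the dimmer one was at 0.03.

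The brighter IL1RN probe also moved between replicates in both ages. Its log2 level was 10.72, 9.18, 9.73 and 11.67 in 10-month embryos and 10.29, 9.37, 10.77 and 11.50 in 16-month embryos. Replicate 2 was lowest and replicate 4 highest in both ages, a span of 5.62-fold at 10 months and 4.40-fold at 16 months. The dimmer probe spanned 1.33-fold and 1.15-fold, so the swing was seen at 1 of the 2 probes. The dimmer probe lay at 1.37 to 2.91 times the limit, where the offset added by the background correction narrows such spans. The order of replicates for the brighter IL1RN probe differed from that for IL1B, except that replicate 2 was lowest for both.

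The decoy receptor IL1R2 came nearest to IL1A among the members. Its log2 ratios were 0.02, 0.11, 0.90 and 0.13 on replicates 1 to 4, above 0 on all 4 arrays. The normalised log2 level was 13.26, 12.94, 13.29 and 13.30 in 10-month embryos and 13.25, 12.82, 12.38 and 13.17 in 16-month embryos, so that the ages overlapped and the 16-month sample of replicate 3 was the lowest. The fitted ratio was 0.29 ± 0.15 (SE), 1.22-fold, with a 95% interval from 0.96 to 1.56. It was 0.10 without replicate 3 and 0.49 without replicate 4. With the dye effect of -0.23 removed the values were 0.24, 0.34, 0.68 and -0.09, so that 3 of 4 were above 0.

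IL1R1, the signalling receptor, had log2 ratios of -0.19, -0.16, 0.30 and 0.02 at its brighter probe, 2 above 0 and 2 below. The fitted ratio was -0.0067 ± 0.12 (SE, 4 arrays), and its 95% interval ran from -0.28 to 0.27. The dimmer probe, below the limit throughout, gives no second reading of the ratio. The offset of 50 that the background correction adds to both channels shrinks the ratios of such dim probes, so the RNA may differ by more than these ratios.

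IL1RAP, the shared accessory protein, was lower in 10-month embryos on 3 arrays, with log2 ratios of 0.23, -0.47, -0.43 and -0.48 on replicates 1 to 4. Replicate 1 went the other way. The fitted log2 ratio was -0.29 ± 0.14 (SE), with a 95% interval from -0.62 to 0.05, and it did not pass. No fold is given, since the 10-month signal was below the limit on replicates 2 and 3. It was -0.46 without replicate 1 and -0.11 without replicate 2. An offset of 10 in place of 50 gave -0.43.

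Set beside IL1A on the same array, the other members were mostly lower. IL1A exceeded all 6 other tested probes in its log2 ratio on replicates 1, 3 and 4. On replicate 2, where IL1A was only 0.18, it exceeded 5 of 6 and IL1B was above it. The median of the other probes was 0.12, -0.02, 0.09 and -0.04 on replicates 1 to 4, with 4, 3, 3 and 3 of 6 above 0. The fitted ratio of IL1A was above that of IL1B by 0.63, above IL1R2 by 0.53 and above the brighter IL1RN probe by 0.98, all on the log2 scale. Because IL1A was chosen for a high value, these gaps are described and not tested.

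Likeness to IL1A was measured as the Euclidean distance between the 4 log2 ratios of a gene's brightest probe and those of IL1A. Over 13482 other genes the nearest were MSS51 (listed as ZMYND17) at a distance of 0.60, PROCR at 0.61, SPATA6 at 0.68, TMEM39B at 0.70 and IRF8 at 0.72. PROCR encodes the endothelial protein C receptor, and IRF8 a transcription factor of the interferon regulatory factor family known from myeloid cells. The ratios of IRF8 were 0.82, 0.31, 0.46 and 0.62 on replicates 1 to 4. Among the members IL1R2 was nearest at 1.47, with 6.37% of those genes nearer than it. IL1B was at 1.84 and IL1R1 at 1.85, with 39.4% and 40.2% of genes nearer, and IL1RN and IL1RAP were at 2.28 and 2.29, with 86.8% and 86.9% nearer. These distances rest on 4 arrays that share a dye effect, and the nearest genes are by construction high at 10 months.

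The other ligands and receptors of the interleukin-1 family had fitted ratios on both sides of 0. Of 19 listed genes 12 had a probe and 10 were tested. None passed the adjusted limma test, as was the case for 0% of 13488 genes. Fitted ratios were above 0 for 5 and below it for 5, beside 49.2% of all genes above 0. Their median was 0.0018, beside -0.0026 over all genes. IL18RAP, below 0, exceeded the limit in 1 of the 10-month and 3 of the 16-month samples. It passed the filter only with the age in which it was higher, so nothing is read from this split. An unadjusted p under 0.05 was found for 1 of the 10 tested genes, against 4.47% of all genes. This was IL33, a cytokine released from damaged epithelial cells, at 0.50 ± 0.15 (SE, adjusted p = 0.957). Its ratios were 0.56, 0.65, 0.75 and 0.03, all above 0, and the probe exceeded the limit in 4 of the 10-month and 2 of the 16-month samples. Another IL33 probe was at 0.05 and 1 more was too dim to test.

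IL18, IL36RN and IL18BP are named because their probes gave the most signal, which does not rank their RNA. IL18, an inflammasome product that acts on lymphocytes, was at -0.04 ± 0.21, with 0.25, 0.0035, -0.90 and 0.49 on replicates 1 to 4. IL36RN (listed as IL1F5), an antagonist of the interleukin-36 receptor, was at 0.03 ± 0.30. Replicate 3 gave -1.58 for it and the other arrays 0.36 to 0.72. The second IL36RN probe was at 0.31 ± 0.16, with 0.45 on replicate 3, so the probes disagreed. That probe exceeded the limit in 4 of the 10-month and 1 of the 16-month samples. The IL18 inhibitor IL18BP was at -0.10 ± 0.15. In the RefSeq annotation of assembly ARS-UCD2.0, used here for names and order only, IL1A and IL1B are separated by 1 annotated gene. IL37, IL36G, IL36A, IL36B, IL36RN and IL1F10 lie between IL1B and IL1RN, and IL1R2 and IL1R1 are neighbours. The fitted ratio was 0.82 for IL1A and 0.19 for IL1B, and IL1F10 was too dim to test.

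Genes that process or release interleukin-1 were tested for 17 of 21 listed, and none passed. Their median was 0.06, with 10 above 0 and 7 below, beside 49.2% of all genes above 0. Of those above 0, CASP4 and ELANE exceeded the limit in 0 of the 16-month samples, so nothing is read from this split. An unadjusted p under 0.05 was found for 2, both toward 10 months, beside 4.47% of all genes. These were CASP4, an inflammatory caspase, and PANX1, a membrane channel. CASP4 exceeded the limit in 3 of the 10-month samples and 0 of the 16-month samples, so it was tested only through the age in which it was higher, and nothing is read from its place in that count. Its fitted log2 ratio was 0.35 ± 0.13 (SE, limma adjusted p = 0.957), with 0.0058, 0.012, 0.93 and 0.45 on replicates 1 to 4. No fold is given, since the 16-month signal was not above background. PANX1 was at 0.30 ± 0.12, with ratios from 0.12 to 0.53. Its probe exceeded the limit in 4 of the 10-month and 2 of the 16-month samples. Calpain 2 (CAPN2), a protease of the family that cuts pro-interleukin 1 alpha, was at -0.10 ± 0.11, and its small subunit CAPNS1 was at 0.27 ± 0.19. The mean over the 3 CAPNS1 probes was -0.06, so its probes disagreed. The protease granzyme B (GZMB) was at 0.16 ± 0.13 at its brightest probe, with a mean of -0.02 over 2 probes.

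Signal transduction was covered by 39 of 42 listed genes. None passed, 19 were above 0 and 20 below, beside 49.2% of all genes above 0, and the median was -0.03. An unadjusted p under 0.05 was found for 3 toward higher and 1 toward lower values, beside 4.47% of all genes in either direction. The stress kinase MAPK8 (JNK1) was at 0.33 ± 0.13, with 0.96 and 0.55 on replicates 3 and 4 and values below 0 on the others, and its second probe was at -0.09. FOS, a subunit of the AP-1 transcription factor, was at 0.34 ± 0.12 with all 4 arrays above 0, and its second probe was at 0.09. MAP2K6, a kinase that activates p38, was at -0.47 ± 0.13, lower on 3 of 4 arrays. NFKBIA, the NF-kB inhibitor, was the remaining one at 0.31 ± 0.12, above 0 on all 4 arrays, and is named after its values were seen. The scaffold SQSTM1 was at -0.15 ± 0.12 and the ubiquitin-conjugating enzyme UBE2N at -0.05 ± 0.12.

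Genes known from other cells to respond to interleukin-1 were tested for 30 of 37 listed. None passed, as 0% of all genes did, and 0 had an unadjusted p under 0.05, beside 4.47% of all genes. The median was 0.04, with 19 above 0 and 11 below, beside 49.2% of all genes above 0. TNF and CCL20, both above 0, exceeded the limit in 2 of the 10-month and 0 of the 16-month samples. LIF, below 0, exceeded it in 1 of the 10-month and 2 of the 16-month samples. Such dim genes passed the filter only with the age in which they were higher, so nothing is read from this split. The mitochondrial superoxide dismutase SOD2 was at -0.25 ± 0.12, the stress response gene IER3 at 0.06 ± 0.23 and the protease urokinase (PLAU) at -0.05 ± 0.36. PLAU had ratios of 0.88, -0.995, -1.01 and 0.94 on replicates 1 to 4. The chemokines CXCL8 and CCL2, the NF-kB feedback inhibitor TNFAIP3, CSF2 and MMP3 were too dim to test. Over all 4 lists, 0 of the tested genes reached a fitted 1.5-fold difference in either direction. Of all tested probes, 0.157% reached it toward 10 months. That share counts probes and 1 direction only, so it is not a like measure, and nothing is read from the count of 0.

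**Figure D4:**
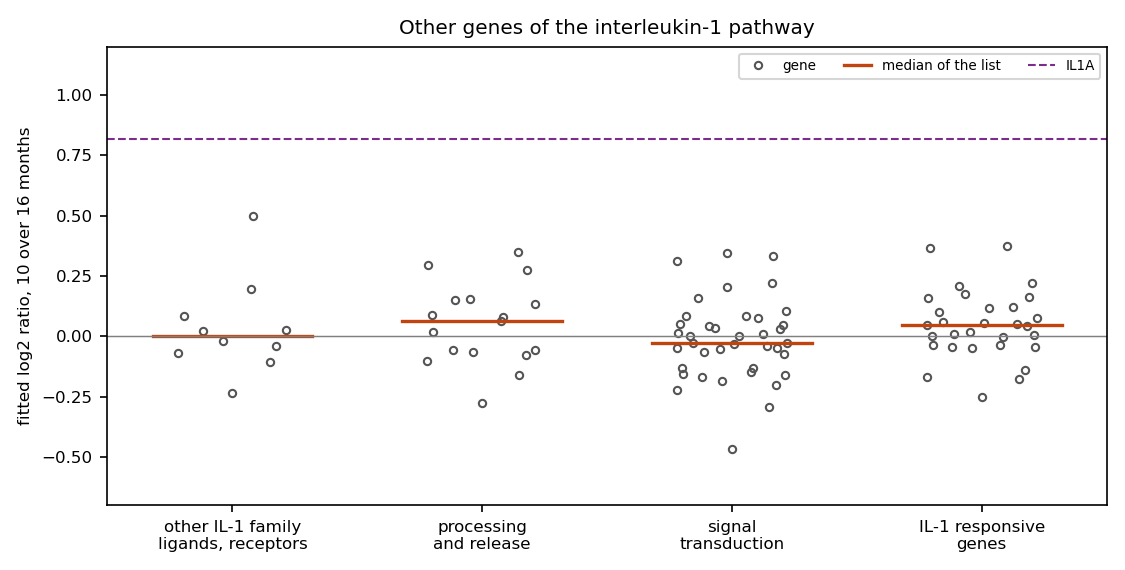
Fitted log2 ratio of 10 over 16 months (vertical axis) for each tested gene of 4 interleukin-1 pathway lists (circles), with the list medians in red and IL1A as a dashed line. Every tested gene of the lists lay below IL1A, which was itself chosen for a high value, and the medians ran from -0.03 to 0.06.

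Leukocytes make interleukin-1, and in a bulk sample more cells of a type and more RNA per cell cannot be told apart. The summed normalised level of the 9 tested leukocyte markers lay between 12.93 and 13.76 (log2) in 10-month embryos and between 12.47 and 13.08 in 16-month embryos. By array, the sum at 10 months differed from that at 16 months by 0.33, 0.51, 1.01 and -0.15 on replicates 1 to 4. These differences, like the per-array ratios given below, still hold the dye effect. PTPRC, the pan-leukocyte marker CD45, had ratios of 0.43, 0.62, 1.11 and -0.20. S100A8, a calcium-binding protein of myeloid cells, had 0.05, 0.02, 1.15 and 0.08. These are the 2 brightest markers, which weigh most in the sum because levels were added on the linear scale. Of the 9 tested markers 7 had a fitted ratio above 0 and 2 below, beside 49.2% of all genes above 0. The 2 below were CD74 at -0.29, lower on all 4 arrays, and CD14 at -0.19. CD3E, among those above 0, exceeded the limit in 2 of the 10-month and 1 of the 16-month samples. It passed the filter only with the age in which it was higher, so nothing is read from this split. The log2 ratio of IL1A on the same arrays was 1.27, 0.18, 0.92 and 0.90. The part of these markers in the IL1A values was not tested. Markers of cumulus and granulosa cells summed to between 10.78 and 10.95 at 10 months and between 10.68 and 10.96 at 16 months.

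**Figure D5:**
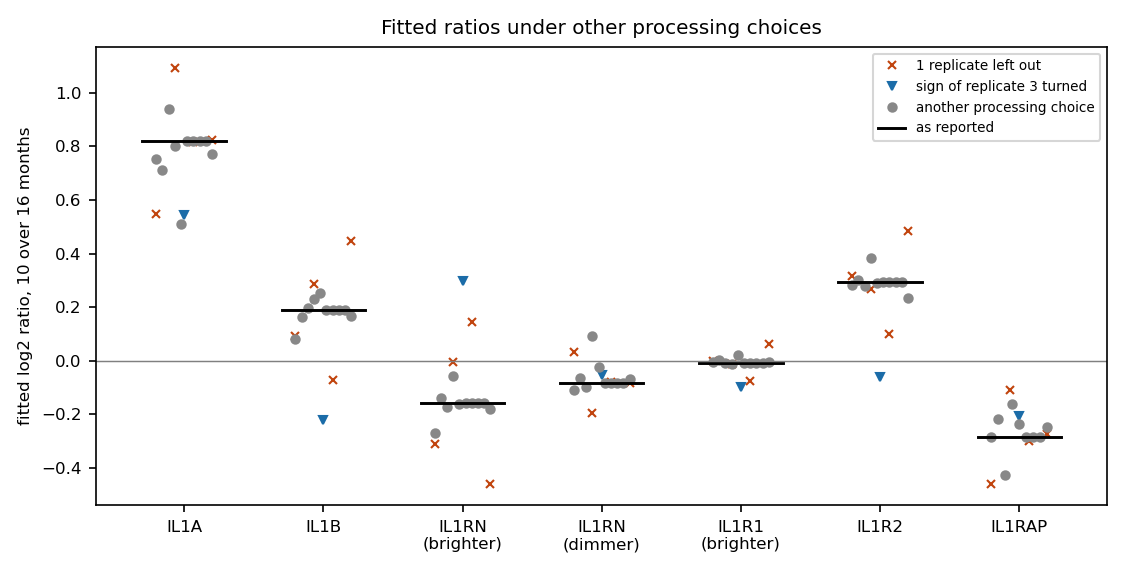
Fitted log2 ratio of 10 over 16 months (vertical axis) of each tested interleukin-1 probe as reported (black line) and under each other processing choice (symbols). IL1A ran from 0.51 to 1.09 and IL1RAP from -0.46 to -0.11, while the other probes had values on both sides of 0. IL1A was chosen for its value in this contrast, so its range is a description without a test.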

How the data were processed

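The intensity values were spot foreground and local background in Cy5 and Cy3, on a linear scale and not normalised, per the file headers of the deposited scans. The authors' deposited value table gave log2 ratios. The submitters' processing notes name limma, with version and filters not given in the sources used here. That table correlated with the loess-normalised Cy5 over Cy3 ratio at 0.978 to 0.991, with column medians from -0.016 to -0.0057, which settles its scale and direction. Whether it was centred is unknown.

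Spot medians were corrected with normexp (offset 50) and normalised by loess within arrays in limma 3.58.1 (R 4.3.3). Levels of single samples came from further quantile scaling of mean log2 intensity between arrays. Of 43794 probes, 36325 were tested: 175 had a set-aside spot and 7294 exceeded the detection limit on at most 1 array. lmFit and eBayes fitted age and dye, and the fit was tested on simulated data. P-values measure only the spread between these arrays, whose number limits the precision.

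Symbols are those of the platform annotation, which can be old (21790 probes with 1 symbol, 22004 with none). A gene is shown by its brightest tested probe. Named were all members, the 3 brightest of each pathway list, up to 3 of a list with the smallest unadjusted p under 0.05, the 5 genes nearest to IL1A and the 2 brightest of each marker list (KRT8, TFAP2C, KLF4, DPPA3, FN1, HNF4A, PTPRC, S100A8, STAR, CYP19A1, TEK and VWF, at -0.18 to 0.49, none passing). NFKBIA, IL18RAP, ELANE, TNF, CCL20, LIF, CD3E, CD14 and CD74 were named after their values were seen. Members and lists were chosen with earlier results of these data known.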

Additional observations from a re-analysis of the deposited data

Results flagged for a closer look

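In 3 of 21 sets of 4 values checked over the arrays (7 probes, each by its ratio and by its level at either age), 1 array stood far from the others by Dixon's test. Chance flags about 1 in 20 such sets. The log2 ratio of IL1R2 was 0.90 on replicate 3, against 0.02 to 0.13 on the others, and its level in 10-month embryos was 12.94 on replicate 2, against 13.26 to 13.30. The log2 ratio of IL1RAP was 0.23 on replicate 1, against -0.48 to -0.43 on the others.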

How the results depend on the processing

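IL1A ran from 0.51 with set-aside spots kept to 1.09 without replicate 2 over the 15 alternatives. It was chosen for a high value on these same arrays, so its staying above 0 is a description without a test. IL1RAP stayed below 0 under all 14 alternatives that gave it a value. Apart from IL1A, no member had an adjusted p under 0.05 in these fits, the lowest being 0.058 for IL1R2. The count of members above 0 was 2 to 4. With no background correction the brighter IL1R1 probe was at 0.0042, and with set-aside spots kept at 0.022. With spot means the dimmer IL1RN probe was at 0.093, the processing list median was 0.0033 and the responsive list median was -0.0082. Turning the recorded sign of replicate 3 gave -0.22 for IL1B, 0.30 for the brighter IL1RN probe and -0.062 for IL1R2. That fit also sets 3 arrays against replicate 4 alone. Leaving out 1 replicate gave -0.070 to 0.45 for IL1B, -0.46 to 0.15 for the brighter and -0.19 to 0.031 for the dimmer IL1RN probe, and -0.076 to 0.063 for IL1R1. It gave medians of -0.020 to 0.042 for the other family members and -0.046 to 0.081 for processing. The count of all probes past the adjusted test was 0 to 1858, with 6 without replicate 3 and 1858 without replicate 4. Such fits leave 1 array in one dye orientation, which is assumed to vary like the rest. The count at an unadjusted p under 0.05 was 1439 with all arrays and 457 to 6565 over the alternatives. The cause of these shifts was not tested. Detection stayed at 6 of 8 probes with 3 median absolute deviations and with spot means, both chosen after seeing the data. A limit from the SD of the local background was not run. Each ratio is taken within an array, so the fit is paired by array, and no further replicate block was fitted because the 2 dye orientations share no replicate number. Signal over background limits IL1R1 and IL1RAP most.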
